A study of Homo sapiens with 6 samples.

Results

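The 9 genes described here, CDKN1A, MDM2, BBC3, BAX, GDF15, SESN1, SAT1, TIGAR and TP53INP1, are target genes of the transcription factor p53 and were chosen by name, as the rows with these symbols among the 33496 genes of each library. All 6 libraries were made from total RNA of ARPE-19, an established human line of retinal pigment epithelium (RPE) cells, labelled wild type. Erastin (5 μM, 24 h), a compound that blocks cystine uptake and so starves cells of glutathione, was given to both groups; 3 libraries had erastin alone (Era) and 3 had a pretreatment with vitamin K1 (VK1; 10 μM, 1 h) before it (Era+VK). VK1 was dissolved in ethyl alcohol and erastin in DMSO. No erastin-free library was analysed here; each difference below sets erastin after VK1 against erastin on its own, and nothing can be said of the effect of erastin itself. The cell line label carries a different number in each library while every title names ARPE-19, and the libraries were taken as ARPE-19.

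p53 accumulates in damaged or stressed cells and binds DNA as a tetramer at response elements in its target genes. Its targets halt the cell cycle, trigger mitochondrial apoptosis or adjust redox and energy metabolism, and one of them, MDM2, marks p53 for destruction and so closes a feedback loop. p53 also touches ferroptosis, the iron-dependent death by lipid peroxidation that erastin sets off, in both directions: it can lower the cystine transporter gene SLC7A11 and raise SAT1, and it can delay the death through CDKN1A. Several p53 targets, among them GDF15 and BBC3, also respond to ATF4 and CHOP, the factors of the amino acid and endoplasmic reticulum stress response.

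Values are FPKM, fragments scaled to transcript length and to the mapped fragments of the library, so levels of different genes can be set side by side. Differences are Era+VK minus Era on log2(FPKM + 1), tested with limma over the 11981 genes whose mean reached 1 FPKM, all 9 genes among them. That scale understates the change of low genes. Between 11924 and 12027 genes per library reached 1 FPKM. KRT8 (171 to 209 FPKM), KRT18 (222 to 246 FPKM), OTX2 (27.5 to 31.4 FPKM) and MITF (15.5 to 18.6 FPKM) were present in all 6 libraries, but the mature RPE genes RPE65 (at most 0.02 FPKM), TYR (at most 0.17 FPKM) and RLBP1 (at most 0.29 FPKM) were absent or nearly so, and BEST1 ranged from 0.60 to 57.0 FPKM with no order by group. Of 10 erythroid markers, 10 reached 0.5 FPKM in Era+VK replicates 2 and 3, where they summed to 239 and 232 FPKM, and 0 of 10 in the other 4 libraries, with sums of 0.07 to 0.21 FPKM. Results are therefore also given for Era+VK replicate 1 alone and for the group without it. In bulk RNA a lower value can mean fewer cells with a transcript or less of it per cell, and these cannot be told apart.

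None of the 9 genes passed the test. In limma 0 of 9 had an adjusted p under 0.05, against 0.618% of all genes tested, or 0.484% for falls alone. At an unadjusted p under 0.05 there were 2, SAT1 and BBC3, both lower in Era+VK; by that measure 15.8% of all genes differed and 5.42% were lower. The same 2 genes were those whose groups did not overlap, with every Era+VK library under every Era library; this held for 7.04% of all genes, and 22.1% had groups apart in either direction. By sign alone 6 of the 9 were lower and 3 higher, and their median log2 difference was -0.03. For all genes tested 36.7% were lower and the median was 0.03. That background depends on the scaling. Of the 11981 genes, 4403 were lower in the main fit, 5743 under quantile normalization and 5901 under median-ratio scaling. Their medians under those 2 scalings were 0.0048 and 0.0016. Under each of the 2, 7 of the 9 genes were lower. Shares by sign below are those of the main fit.

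The genes differed far more from each other than between the groups. CDKN1A stood highest at 131 FPKM over the 6 libraries, a level above 98.4% of the genes tested, followed by SAT1 at 40.9 FPKM, BAX at 31.2 FPKM, MDM2 at 14.1 FPKM and TP53INP1 at 13.0 FPKM. BBC3 (6.55 FPKM), SESN1 (5.71 FPKM), GDF15 (2.44 FPKM) and TIGAR (2.30 FPKM) were the low genes of the set. The ranges over libraries overlapped for the neighbours MDM2 and TP53INP1, BBC3 and SESN1, and GDF15 and TIGAR, so their order is not fixed by these data.

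**Figure D1:**
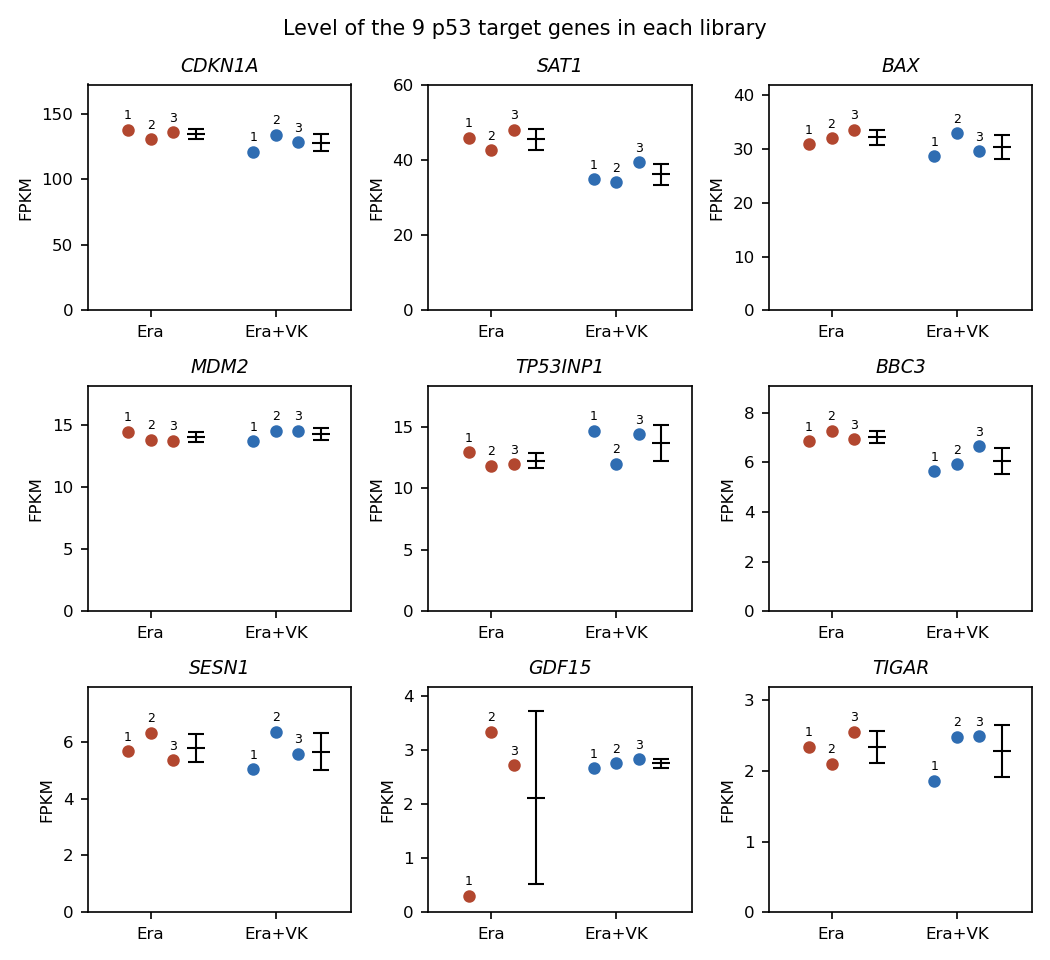
Level in FPKM (vertical axes, each from 0) of the 9 genes in the 3 Era and 3 Era+VK libraries; points are libraries with their replicate numbers, and the black bar to the right of each group is its mean with 1 SD. SAT1 and BBC3 are the panels in which the groups do not overlap, and the wide Era bar of GDF15 comes from 1 library at 0.31 FPKM.

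SAT1 (ENSG00000130066) encodes spermidine/spermine acetyltransferase, the enzyme that commits polyamines to breakdown and that has been tied to p53-driven ferroptosis through the lipoxygenase ALOX15. The gene lies on the plus strand at chrX:23783173-23786226 (GENCODE 29, GRCh38). It was measured at 46.0, 42.7 and 48.2 FPKM in Era replicates 1, 2 and 3 and at 35.0, 34.2 and 39.6 FPKM in Era+VK replicates 1, 2 and 3. All 3 Era+VK libraries were below the lowest Era library. The group means were 45.6 ± 2.76 and 36.2 ± 2.91 FPKM (SD, n = 3 each), a log2 difference of -0.32 (SE 0.07, 95% interval -0.48 to -0.17). The adjusted p in limma was 0.0926, which misses 0.05, and by unadjusted p SAT1 was number 215 of 11981. An exact permutation test gave a two-sided p = 0.1, the smallest that 3 libraries against 3 allow. In 14 of 14 alternative fits the difference kept its sign, between -0.39 and -0.29, with limma adjusted p values between 0.0642 and 0.258. Much of this was fixed beforehand. With groups that do not overlap, leaving libraries out cannot turn the sign, and the filters and the replicate block leave the difference unchanged. ALOX15 itself was listed at 0 in all 6 libraries.

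BBC3 (ENSG00000105327), on the minus strand at chr19:47220822-47232766, encodes PUMA, a BH3-only protein that frees BAX and BAK to open the outer mitochondrial membrane. Its values were 6.86, 7.28 and 6.94 FPKM in the Era libraries and 5.64, 5.92 and 6.65 FPKM in the Era+VK libraries, in replicate order. The groups did not overlap, but Era+VK replicate 3 came close to the lowest Era library. The means were 7.03 ± 0.223 and 6.07 ± 0.521 FPKM (SD, n = 3 each), with a log2 difference of -0.19 (SE 0.06, 95% interval -0.33 to -0.04) and an adjusted p of 0.224 in limma. This sign too was kept in 14 of 14 alternatives, from -0.27 to -0.14, but leaving libraries out could not turn it here either.

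BAX, the pore-forming partner of that pathway (ENSG00000087088, plus strand, chr19:48954815-48961798), was at 30.9, 32.0 and 33.5 FPKM in Era and at 28.7, 32.9 and 29.5 FPKM in Era+VK. Era+VK replicates 1 and 3 were under all Era libraries and replicate 2 lay inside their range. The log2 difference was -0.08 (SE 0.06, 95% interval -0.22 to 0.06; limma adjusted p = 0.555). TP53INP1, on chromosome 8, encodes a nuclear and autophagosomal protein that promotes p53-dependent apoptosis and lowers oxidative stress. It was at 12.95, 11.85 and 11.98 FPKM in Era and at 14.69, 12.02 and 14.40 FPKM in Era+VK. Its sign was opposite to that of BBC3 and BAX, with 2 of 3 Era+VK libraries above the Era range and replicate 2 within it, a log2 difference of 0.15 (SE 0.08, 95% interval -0.04 to 0.33) and an adjusted p of 0.409 in limma.

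CDKN1A (ENSG00000124762, plus strand, chr6:36676460-36687339) encodes p21, the cyclin-dependent kinase inhibitor through which p53 arrests the cell cycle. It was at 138, 131 and 136 FPKM in Era and at 121, 134 and 128 FPKM in Era+VK. The ranges overlapped through Era+VK replicate 2, and the means of 134.8 ± 3.70 and 127.8 ± 6.50 FPKM (SD, n = 3 each) gave a log2 difference of -0.08 (SE 0.05, 95% interval -0.20 to 0.04; limma adjusted p = 0.5002). MDM2 (ENSG00000135679, plus strand, chr12:68808176-68850686), the ubiquitin ligase of the feedback loop, was at 14.5, 13.8 and 13.7 FPKM in Era and at 13.7, 14.5 and 14.5 FPKM in Era+VK. Its groups covered almost the same range. The log2 difference of 0.02 had the narrowest interval of the 9 genes (SE 0.05, 95% interval -0.08 to 0.13; limma adjusted p = 0.842), and its sign turned under quantile normalization and median-ratio scaling. For both genes the intervals exclude changes of the size seen for SLC7A11, below, but not smaller ones.

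SESN1 (sestrin 1), which supports peroxiredoxin recycling and restrains mTORC1, and TIGAR, a phosphatase that diverts glucose into the pentose phosphate pathway and so towards NADPH, are the antioxidant side of the p53 response. SESN1 (ENSG00000080546, minus strand, chr6:108986437-109094819) was at 5.66, 6.32 and 5.34 FPKM in Era and at 5.04, 6.35 and 5.57 FPKM in Era+VK, a log2 difference of -0.03 (SE 0.09, 95% interval -0.23 to 0.17; limma adjusted p = 0.906). TIGAR (ENSG00000078237, plus strand, chr12:4307763-4354593) was at 2.34, 2.1 and 2.55 FPKM in Era and at 1.86, 2.48 and 2.49 FPKM in Era+VK, also a log2 difference of -0.03 (SE 0.10, 95% interval -0.25 to 0.20; limma adjusted p = 0.920). For both, Era+VK replicate 1 was the lowest of the 6 libraries. Without that library the differences turned to 0.04 for SESN1 and 0.07 for TIGAR.

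GDF15 (ENSG00000130513, plus strand, chr19:18374731-18389176) encodes a secreted stress cytokine that reaches the brainstem receptor GFRAL. It was at 0.31 FPKM in Era replicate 1, at 3.34 and 2.72 FPKM in Era replicates 2 and 3, and at 2.67, 2.76 and 2.83 FPKM in Era+VK. The Era+VK libraries were close together, whereas Era replicate 1 was far below all others. Its SD within groups, 0.67 on the log2 scale, was larger than that of 99.4% of the genes tested. The log2 difference of 0.44 (SE 0.40, 95% interval -0.48 to 1.36; limma adjusted p = 0.625) rests on that library, since without Era replicate 1 it was -0.10. No other of the 9 genes had its lowest value in Era replicate 1.

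**Figure D2:**
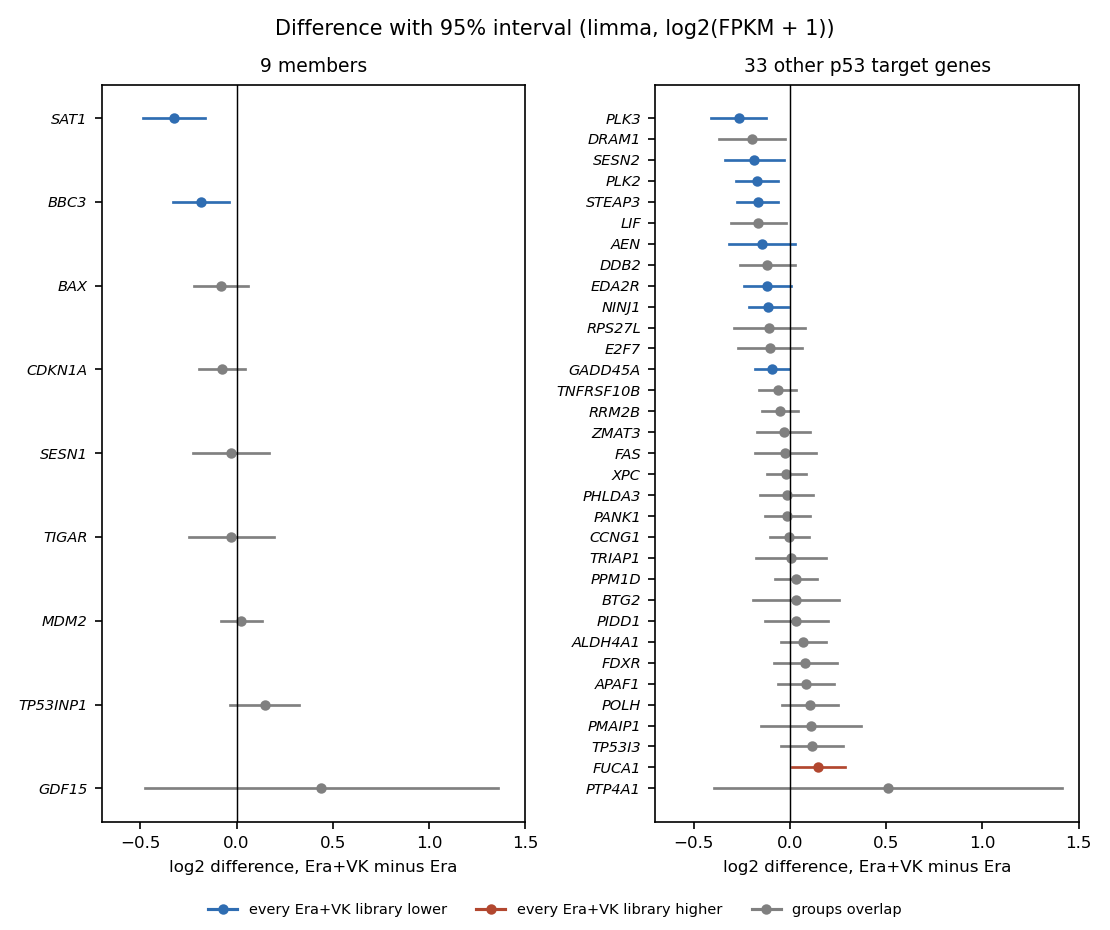
Log2 difference, Era+VK minus Era, on log2(FPKM + 1) with its 95% interval from limma (horizontal axes) for the 9 genes (left) and 33 of the other p53 target genes (right), each sorted by size; blue marks genes with every Era+VK library below every Era library, red the opposite and grey groups that overlap. Among the 9 genes only SAT1 and BBC3 are blue, and the intervals of GDF15 and of PTP4A1 are far wider than the rest.

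Era+VK replicate 1 set much of the direction. In that library 7 of the 9 genes were below the whole Era range and 1, TP53INP1, above it, where 25.5% of all genes tested were below and 38.1% above the range in the same library. In Era+VK replicate 2 the count was 2 below and 2 above (22.8% and 40.6% of all genes), and in replicate 3 it was 4 below and 2 above (22.1% and 41.5% of all genes). The median of the 9 differences from the Era mean was -0.16, 0.03 and -0.04 in replicates 1, 2 and 3. Without Era+VK replicate 1, 4 of 9 were lower and the median was 0.04; without replicates 2 and 3, which carried the erythroid transcripts, 7 of 9 were lower and the median was -0.16. The groups of 5 of 9 were apart without Era+VK replicate 2 (40.7% of all genes) and those of 8 of 9 without replicates 2 and 3 (63.6% of all genes), counts that rise as libraries are removed. SAT1, BBC3 and CDKN1A were below the Era mean in each of the 3 libraries. The differences were -0.37, -0.40 and -0.20 for SAT1, -0.27, -0.21 and -0.07 for BBC3, and -0.15, -0.01 and -0.07 for CDKN1A. The part of the erythroid transcripts in these differences was not tested.

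**Figure D3:**
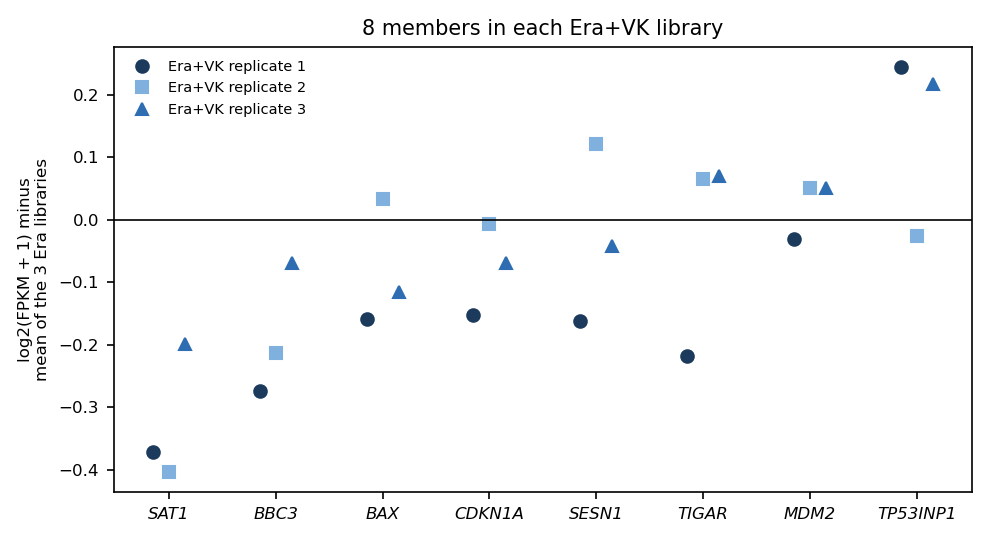
Difference of each Era+VK library from the mean of the 3 Era libraries on log2(FPKM + 1) (vertical axis) for 8 of the genes, without GDF15; circles, squares and triangles are Era+VK replicates 1, 2 and 3. SAT1, BBC3 and CDKN1A have all 3 symbols below 0, that of CDKN1A in replicate 2 at -0.01. Replicate 1 has the lowest symbol for BBC3, BAX, CDKN1A, SESN1, TIGAR and MDM2.

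The genes with the most similar profile over the 6 libraries were sought for SAT1 and BBC3, the 2 genes with the smallest p, as the smallest Euclidean distance between log2(FPKM + 1) profiles centred on their mean, among 11980 genes. Nearest to SAT1 were the pseudogene ZBED10P (distance 0.0764), the adaptor gene DOK3 (0.0986) and the mitochondrial protease gene LONP1 (0.105), where the median gene was at 0.516. Nearest to BBC3 were the zinc finger factor gene KLF16 (0.0545), the growth factor gene TGFA (0.0562) and WDR43 (0.0627), with a median of 0.363. LONP1 was at a level much like that of SAT1, 44.7 ± 1.89 FPKM without VK1 and 36.6 ± 1.90 FPKM with it (SD, n = 3 libraries each). Its lower mean with VK1 follows from its being picked by likeness to SAT1 and is no separate result.

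A further 37 p53 targets were listed by function, of which 34 were tested; GLS2 and TNFRSF10D were under 1 FPKM and SPATA18 was not found by symbol. In limma 0 of 34 passed. At an unadjusted p under 0.05 there were 10, of them 9 lower (26.5%, against 5.42% of all genes; 15.8% in either direction). By sign 22 were lower (64.7%, against 36.7% of all genes) and 12 higher, with a median of -0.03, and in 9 of the 34 (26.5%) every Era+VK library was below every Era library, against 7.04% of all genes tested. In 1, FUCA1, every Era+VK library was above. SESN2, PMAIP1, TNFRSF10B and GADD45A were listed as driven by ATF4 or CHOP as well. Without them 7 of 30 (23.3%) had all Era+VK libraries lower, against 7.04% of all genes. Whether any of the 30 respond to these factors was not tested.

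Of 7 cell-cycle and feedback targets, 5 were lower by sign (36.7% of all genes). The groups of 3 did not overlap, with Era+VK lower (7.04% of all genes). These were the polo-like kinase genes PLK3 (3.49 ± 0.146 against 2.73 ± 0.197 FPKM; -0.27) and PLK2 (149.6 ± 2.38 against 132.6 ± 5.60 FPKM; -0.17) and the growth arrest gene GADD45A (58.7 ± 0.518 against 55.0 ± 1.16 FPKM; -0.09), with Era before Era+VK as mean ± SD, n = 3 each. Their limma adjusted p values were 0.113, 0.152 and 0.302.

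Of 12 targets in cell death, 7 were lower and 5 higher by sign (36.7% of all genes were lower). The groups did not overlap for AEN, a nuclease (log2 difference -0.15), and EDA2R, a receptor of the tumour necrosis factor family (-0.12). Of all genes, 7.04% had groups apart with Era+VK lower. TP53I3 was at 0.11 and RPS27L at -0.11, both with overlapping groups. PMAIP1, the gene of the BH3-only protein NOXA, was at 3.89, 4.08 and 2.91 FPKM in Era and at 3.51, 4.45 and 3.94 FPKM in Era+VK, so that it overlapped where BBC3 did not. Among 7 tested metabolic and autophagy targets 4 were lower and 3 higher by sign, where 36.7% of all genes were lower. Every Era+VK library was lower for SESN2, the stress-induced sestrin (11.6 ± 0.232 against 10.1 ± 0.937 FPKM; -0.19), and for the ferrireductase gene STEAP3 (13.0 ± 0.226 against 11.4 ± 0.485 FPKM; -0.17), SD over n = 3 each. DRAM1, a lysosomal inducer of autophagy, differed by -0.20 with overlapping groups. Of 4 DNA repair targets, 3 were lower by sign (36.7% of all genes) and 1 was higher, POLH at 0.10. All had overlapping groups, the largest difference being -0.12 for DDB2. Of secreted and membrane proteins, NINJ1 had groups apart at -0.11, LIF overlapped at -0.16, and PTP4A1, at 3.43 to 11.3 FPKM with no order by group, had 0.51 (SE 0.39).

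Of 17 regulators of p53, 15 were tested; TP63 and TP73 were under 1 FPKM. By sign 15 of 15 were higher in Era+VK, where 63.3% of all genes were, with a median of 0.06, but 4 were lower under quantile normalization, 3 under median-ratio scaling, 1 without Era replicate 2, 1 of the then 17 tested without a filter on low values, 2 without any 1 of the Era+VK libraries and 4 without Era+VK replicates 2 and 3. Of all 11981 genes, 4403 were lower in the main fit, 5743 under quantile normalization and 5901 under median-ratio scaling. In limma 0 of the 15 regulators passed, and 0 did so unadjusted. EP300, a p53 acetyltransferase, had the largest difference at 0.13, followed by the kinase gene HIPK2 at 0.11. Of 9 mitotic genes that p53 lowers through p21, 9 were higher by sign, against the same 63.3% of all genes, with a median of 0.14. All 9 stayed higher under both of those scalings, but 1 was lower without Era+VK replicate 2 and 4 were lower without Era+VK replicates 2 and 3. In limma 0 passed and 1, TOP2A, had an unadjusted p under 0.05, where 10.4% of all genes were higher by that measure. TOP2A, a topoisomerase of dividing cells, was at 25.04, 25.38 and 26.04 FPKM in Era and at 30.1, 29.3 and 30.9 FPKM in Era+VK, with no overlap and a log2 difference of 0.23 (SE 0.04; limma adjusted p = 0.0628). The median of the 9 mitotic genes was 0.01 in Era+VK replicate 1 and 0.17 and 0.24 in replicates 2 and 3, the libraries with erythroid transcripts; their part in this was not tested.

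**Figure D4:**
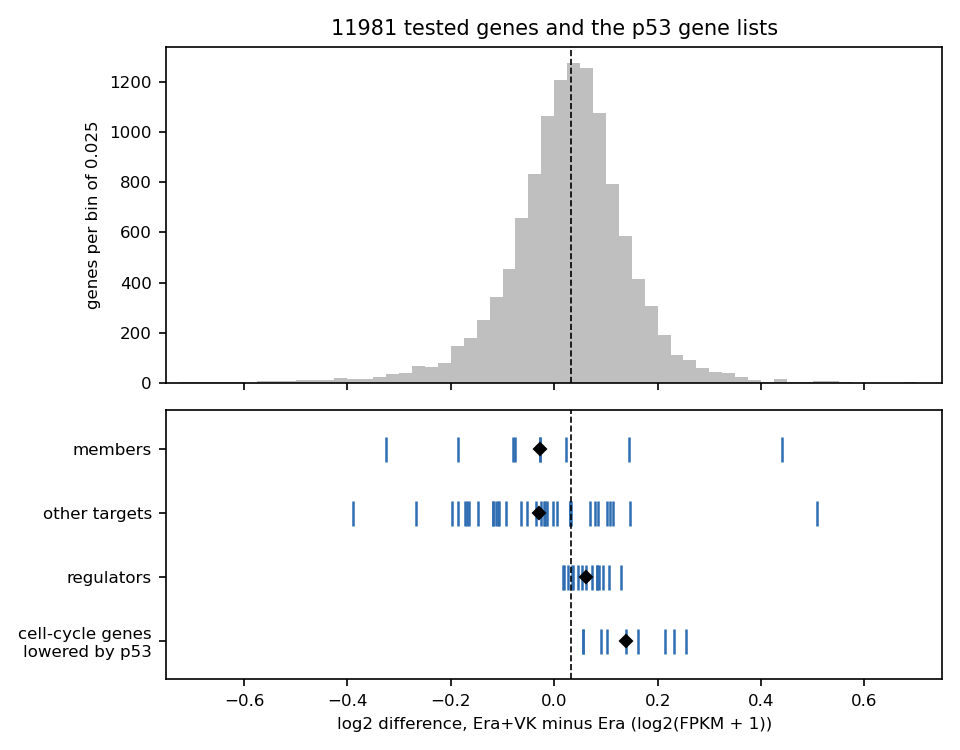
Log2 difference, Era+VK minus Era, on log2(FPKM + 1) (horizontal axis, shown from -0.75 to 0.75): histogram of the genes tested (upper panel, genes per bin of 0.025) and single genes of 4 lists as ticks with their median as a diamond (lower panel); the dashed line is the median of all genes, 0.03. The medians of the 9 genes and of the other targets lie just below 0, those of the regulators and of the mitotic genes at 0.06 and 0.14.

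The gene of the p53 ferroptosis axis that did pass was SLC7A11, which encodes the cystine transporter subunit that erastin inhibits. It was at 7.22, 9.29 and 7.84 FPKM in Era and at 4.50, 4.41 and 5.33 FPKM in Era+VK, and it fell by 0.66 on the log2 scale (SE 0.10; limma adjusted p = 0.0337). It was the 1 of 5 tested genes of this list to pass, where 0.484% of all genes passed as lower, and of 14 alternatives 6 kept it past the threshold. Its limma adjusted p was above 0.05 without any 1 of the Era libraries (0.0832, 0.111 and 0.133 without replicates 1, 2 and 3), without Era+VK replicate 1 (0.0911) or 2 (0.065), without Era+VK replicates 2 and 3 together (0.126), without a filter and with the replicate block, while the difference stayed between -0.76 and -0.57. SLC7A11 is raised by ATF4 and lowered by p53, and ATF4 itself fell, from 139.5 ± 5.76 to 95.1 ± 5.99 FPKM (SD, n = 3 each; log2 difference -0.55, limma adjusted p = 0.0128). CHAC1, an ATF4 target that degrades glutathione, fell by 1.19 on that scale (limma adjusted p = 0.0263). Of 5 tested genes listed around ATF4, these 2 passed, where 0.484% of all genes passed as lower. TRIB3 was at -0.45 (limma adjusted p = 0.05525) and ATF3 at -0.15 (limma adjusted p = 0.319). DDIT3, the gene of CHOP, was at 0.07 with overlapping groups (limma adjusted p = 0.684). ATF4 passed in 10 of 14 alternatives and CHAC1 in 8 of 13; both missed the threshold without any 1 of the Era libraries, with limma adjusted p values of 0.0683 to 0.102 for ATF4 and 0.0832 to 0.137 for CHAC1, and CHAC1 did so without Era+VK replicate 2 (0.0522). Of the 6 p53 targets shared with ATF4 or CHOP, 0 passed in limma, against 0.618% of all genes. In limma 3 had an unadjusted p under 0.05, all lower, where 15.8% of all genes differed and 5.42% were lower. They were BBC3 and SESN2, both at -0.19, and GADD45A at -0.09. TNFRSF10B was at -0.06, PMAIP1 at 0.11 and GDF15 at 0.44. p53 and ATF4 cannot be told apart as sources of these differences here.

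The windows around RefSeq start sites (GRCh38.p14; 250 bases before and 50 after) were searched for the p53 decamer motif, of which a response element holds a pair; the motif reads alike on both strands, so a single search covers them. It occurred in 6.63% of 35116 windows. Of 13 windows of 8 of the 9 genes it occurred in 1, at SESN1, and in 7 of 42 windows (16.7%) of the other targets, at AEN, DDB2, FAS, FDXR, PANK1, PLK2 and RPS27L. The windows are short, and response elements farther upstream or within introns lie outside them. The stretches below hold the match in capitals, 5′ to 3′ on the strand of the gene, for SESN1 and for PLK2 and AEN, the 2 other targets with a match whose groups did not overlap.
SESN1, chr6:109009003-109009062, minus strand: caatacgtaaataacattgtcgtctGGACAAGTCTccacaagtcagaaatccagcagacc
PLK2, chr5:58460184-58460243, minus strand: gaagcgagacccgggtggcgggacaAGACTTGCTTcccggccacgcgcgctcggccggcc
AEN, chr15:88621281-88621339, plus strand: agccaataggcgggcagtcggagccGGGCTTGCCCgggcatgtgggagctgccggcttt
The match began 49 bases before the start site of its window in SESN1, 132 in PLK2 and 34 in AEN. In SESN1 that start site lies inside the gene (chr6:108986437-109094819, minus strand), downstream of its outermost start. The composite element TGATGNAA of C/EBP and ATF4, searched on both strands, occurred in 3.62% of all windows, in 0 of the 13 windows of SAT1, BBC3 and the other matched genes, and in 2 of 42 of the other targets, PLK3 and PTP4A1. SAT1 and BBC3 thus held neither motif in these windows, which says nothing of binding.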

How the data were processed

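ARPE-19 cells under erastin, without (Era) or with (Era+VK) VK1, were compared in 3 libraries each. The authors deposited FPKM per gene and library with 2 decimals. The submitters' processing notes name cutadapt, HISAT2, StringTie 2.1.6 and the mouse build mm10, although the gene identifiers are human; strand handling and the annotation are not given in the sources used here. Where members overlap other genes (DINOL at CDKN1A, CPM at MDM2), reads cannot be assigned by strand. FPKM are relative to all mapped fragments, and low values showed no whole-read steps, so depth and counting error are unknown and no count model was used.

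The 11981 genes averaging 1 FPKM or more were fitted on log2(FPKM + 1) with limma 3.58.1 in R 4.3.3 (empirical Bayes with trend, no replicate term), adjusted by Benjamini-Hochberg, threshold 0.05. The script was tested on simulated data. No source says that replicates were separate cultures, so p-values measure the spread between these libraries only, which may be technical. The genes and lists were chosen with earlier results of these data known. Named are the 9 genes and, from each list, genes that passed and up to 4 with the largest difference. Genes under the filter and genes with a motif are named as such, and DDIT3 as the gene of CHOP. The p53 gene itself and the values of 1 other listed target, which stays in the counts of its list, are not reported here. Positions are from GENCODE 29, matched by Ensembl identifier, and sequences from RefSeq. Alternatives were a pseudocount of 0.1, other filters and scalings, a replicate block, and libraries left out.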

Additional observations from a re-analysis of the deposited data

How the results depend on the processing

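In every alternative run, limma called 0 of the 9 genes and 0 of the other p53 targets. Of 125 alternative values of the 9 log2 differences, 117 kept their sign and 8 did not: MDM2 under quantile normalization (-0.0021), median-ratio scaling (-0.0109) and without Era+VK replicates 2 and 3 (-0.0301), GDF15 without Era replicate 1, SESN1 without Era replicate 2 or Era+VK replicate 1, and TIGAR without Era replicate 3 or Era+VK replicate 1. With each library left out in turn, GDF15 ranged from -0.0985 to 0.7655, SESN1 from -0.1021 to 0.0395 and TIGAR from -0.0777 to 0.0678. GDF15 drops out when 1 FPKM is required in every library. The filters and the replicate block leave each difference unchanged, and leaving libraries out cannot turn the sign of SAT1 or BBC3. Part of the 117 was therefore fixed beforehand. The number of genes with groups apart was 2 to 5 of 9 with each library left out in turn, the 5 being without Era+VK replicate 2 (40.7% of all genes), and 8 of 9 without Era+VK replicates 2 and 3 (63.6% of all genes), since fewer libraries overlap less often.

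Over all genes, 74 calls (16 higher, 58 lower) became 1 without a filter, 122 with at least 1 FPKM in every library, 112 (16 higher, 96 lower) under quantile normalization, 118 (13 higher, 105 lower) under median-ratio scaling and 35 without Era+VK replicates 2 and 3, and with each library left out ranged from 2 to 70: 2, 2 and 5 without Era replicates 1, 2 and 3, and 70, 60 and 42 without Era+VK replicates 1, 2 and 3. With the replicate block 42 genes were called (5 higher, 37 lower) and again 0 of the 9. Deviations of same-numbered libraries correlated at 0.07, 0.10 and 0.02, and Era replicate 3 correlated better with Era+VK replicate 1 (0.04), so the numbers were not taken to pair the libraries. The causes of these shifts were not tested. With 3 libraries a group and unknown depth, the intervals given for each gene bound what could be seen.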

Other observations

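The KEGG annotation carried by the files names 71 p53 pathway genes beside that of p53; this list was added after the files had been seen. Of 62 tested, 32 were higher and 30 lower by sign (36.7% of all genes were lower), with a median of 0.01. The list shares genes with the 9 and with the other targets above. Of the 42 tested genes outside both, 38.1% were lower by sign, near the share of all genes, with a median of 0.03. In limma 1 of the 62 passed (0.618% of all genes, 0.484% as lower), IGFBP3, a secreted binder of insulin-like growth factors that p53 induces. IGFBP3 was at 48.0, 44.9 and 55.3 FPKM in Era and at 35.0, 34.0 and 33.7 FPKM in Era+VK. The Era+VK libraries lay together below the Era range, and the log2 difference was -0.51 (SE 0.07; limma adjusted p = 0.0331). IGFBP3 passed in 5 of 14 alternatives and missed the threshold with any 1 library left out (limma adjusted p from 0.0635 to 0.129) and with the replicate block (0.0683), its difference staying between -0.58 and -0.43. Of its D-type cyclins, CCND1 averaged 93.5 ± 10.04 FPKM without VK1 and 69.6 ± 5.49 FPKM with it (log2 difference -0.42, limma adjusted p = 0.0877), and CCND3 at 6.92 ± 0.217 and 8.62 ± 0.651 FPKM (0.28, limma adjusted p = 0.0941), SD over n = 3 each. The groups of CCND1 and CCND3 did not overlap and lay in opposite directions.

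Among 11 tested paralogs and partners of the 9 genes, 0 passed in limma and 6 had an unadjusted p under 0.05 (15.8% of all genes), 4 of them higher in Era+VK (10.4% of all genes). BAK1, the sister of BAX, was at 8.42, 7.91 and 9.21 FPKM in Era and at 10.1, 10.6 and 10.4 FPKM in Era+VK (log2 difference 0.26, SE 0.06; limma adjusted p = 0.111), without overlap. SAT2, the paralog of SAT1, was at 9.34, 8.98 and 10.2 FPKM in Era and at 10.6, 13.2 and 10.5 FPKM in Era+VK (0.24, SE 0.09; limma adjusted p = 0.266). SAT2 and BAK1 had the opposite sign to SAT1 and BAX in each of the 14 alternatives. The groups of SAT1, SAT2 and BAK1 did not overlap, so leaving libraries out could not turn their signs. Other paralogs had the sign of their member in the main fit: TP53INP2 at 0.24 (limma adjusted p = 0.275) with TP53INP1, and SESN2 at -0.19 with SESN1. BAD was at 0.23 (limma adjusted p = 0.252). By sign 8 of the 11 were higher and 3 lower, where 63.3% of all genes were higher.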
